A study of Mus musculus with 2 samples.

Results

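The 6 genes described here encode proteins that take up amines and amino acids or cut vasoactive peptides in blood vessels: Slc6a2, Slc6a4, Slc6a6, Maoa, Ace and Enpep. They were chosen by symbol, and all 6 were found among the 31053 genes counted. The genes were followed in PECAM1-sorted lung cells of male young adult C57BL/6 wild-type mice, 6 h after intravenous injection of PBS vehicle (the control library) or of 200000 B16F10 cells per mouse (the metastatic library). PECAM1 is an endothelial surface protein, and B16F10 is a mouse melanoma line that lodges in the lung after injection. The sort of this experiment used no CD45 gate against leukocytes. Each group was 1 library that pooled 2 mice, so no spread between animals was measured, and no test between the groups was possible. All intervals below are 95% intervals that cover counting error only.

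The lung endothelium clears circulating amines and converts circulating peptides, since the whole cardiac output passes over it. Slc6a2 encodes the noradrenaline transporter and Slc6a4 the serotonin transporter, which share a family of sodium-coupled carriers with Slc6a6, the taurine transporter. Maoa encodes monoamine oxidase A, an enzyme of the outer mitochondrial membrane that oxidizes serotonin and noradrenaline once they are inside the cell. Ace encodes angiotensin-converting enzyme, which forms angiotensin II and degrades bradykinin, and Enpep encodes aminopeptidase A, which removes the first residue of angiotensin II.

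The libraries held 67929614 (control) and 64733724 (metastatic) UMIs (unique molecular identifiers, each marking 1 captured RNA molecule). Barcodes with 1000 to 5000 genes and under 20% mitochondrial UMIs numbered 7134 and 6466, of which 16 were called in both libraries. Cells were put into classes by detected markers: 5073 and 4573 general capillary cells, 1376 and 1088 aerocytes, 59 and 56 artery cells, and 179 and 229 vein cells. Between 97.8% and 100% of the cells of each class carried at least 2 of 4 endothelial markers (Cdh5, Cldn5, Tie1, Egfl7). Median depth lay between 5961 and 8636 UMIs per cell over the classes. Cells with a UMI of the platelet gene Pf4 made up 12.4% of control cells and 17.9% of metastatic cells. Lymphoid cells, used as the background for shares of cells, numbered 62 and 63. A list meant for lymphatic cells was met by 1736 and 1454 cells, most of them general capillary cells, so it marked no separate cell type and was not used further.

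On the mm10 build (GRCm38), Slc6a2 (ENSMUSG00000055368) lies at chr8:92960079-93001667, Slc6a6 (ENSMUSG00000030096) at chr6:91684053-91759066 and Maoa (ENSMUSG00000025037) at chrX:16619698-16687818, all on the plus strand. Slc6a4 (ENSMUSG00000020838) at chr11:76998603-77032340 and Ace (ENSMUSG00000020681) at chr11:105967945-105989964, also on the plus strand, each overlap an antisense gene that was counted separately. Enpep (ENSMUSG00000028024) lies on the minus strand at chr3:129269175-129332720. All 6 are protein-coding.

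The members fell into distinct patterns across the classes. Slc6a2 stood apart in vein cells, Slc6a6 was highest in artery cells, and Ace was detected throughout at levels that fell from artery to capillary to vein. Maoa was the one member past 1.5-fold between the libraries in general capillary cells, where it was higher in the metastatic library. Most Slc6a4 UMIs of capillary cells came from cells that also carried platelet markers, and most Enpep UMIs from cells that also carried genes of alveolar type 2 epithelium.

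**Figure D1:**
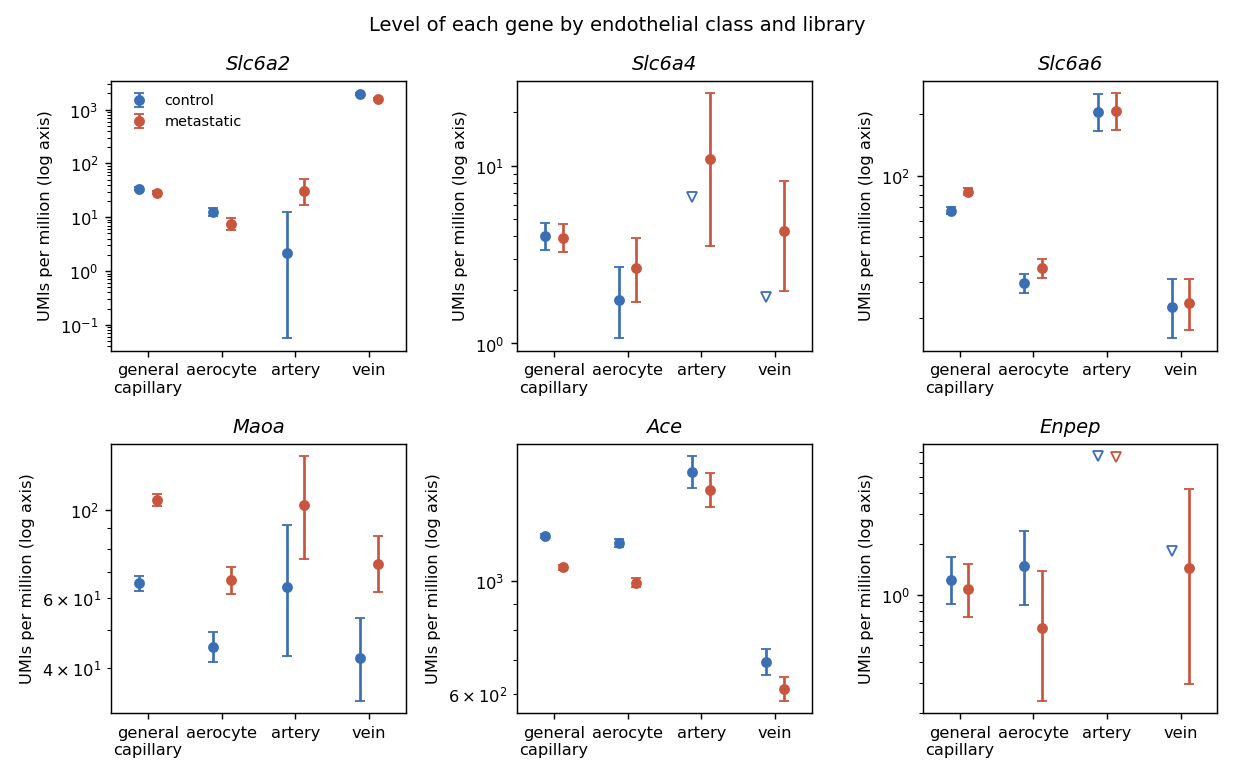
Level of each gene in CPM (UMIs per 1000000; log axis, scaled per panel) by endothelial class and library. Points are sums over all cells of a class with 95% Poisson intervals, and open triangles mark the level of 3 UMIs where no UMI was counted. Slc6a2 reached 1945 and 1561 CPM in vein cells, far above the other classes.

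Levels are given in CPM, the UMIs of a gene per 1000000 UMIs summed over all cells of a class, control before metastatic. Slc6a2, the noradrenaline transporter gene, reached 1945 CPM (1878–2013) in control vein cells and 1561 (1508–1615) in metastatic vein cells. General capillary cells held 33.8 (31.9–35.9) and 28.7 (26.8–30.6). Aerocytes held 12.8 (10.8–15.0) and 7.54 (5.89–9.51), and artery cells had 1 and 14 UMIs in all. Vein cells were thus the highest class in both libraries, and the intervals of no other class reached them.

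The vein level was 57.5-fold (control) and 54.4-fold (metastatic) that of general capillary cells. Of all genes compared between vein and general capillary cells, 0.081% were as high in both libraries. Slc6a2 was 1 of 482 genes among 12310 tested that were past 2-fold higher in vein cells in both libraries, a share of 3.92%. The 3 genes that define the vein class (Car8, Bst1, Cytl1) do not include it. Vein cells were 2.51% and 3.54% of the called cells and held 61.8% and 66.0% of all Slc6a2 UMIs.

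After each cell was thinned to 2000 UMIs, 83.8% (77.6–88.9) of control and 83.7% (78.2–88.3) of metastatic vein cells carried a Slc6a2 UMI. The same share was 2.48% (2.07–2.95) and 2.13% (1.73–2.59) in general capillary cells. Lymphoid cells, which serve as the background, gave 0 of 62 (up to 5.78%) and 3.23% (0.39–11.2). With so few lymphoid cells the capillary shares could not be told from the background, whereas the vein shares lay far above it. By level, lymphoid cells held 6.17 (0.75–22.3) and 8.92 (1.84–26.1) CPM, on 2 and 3 UMIs, below general capillary cells in both libraries.

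**Figure D2:**
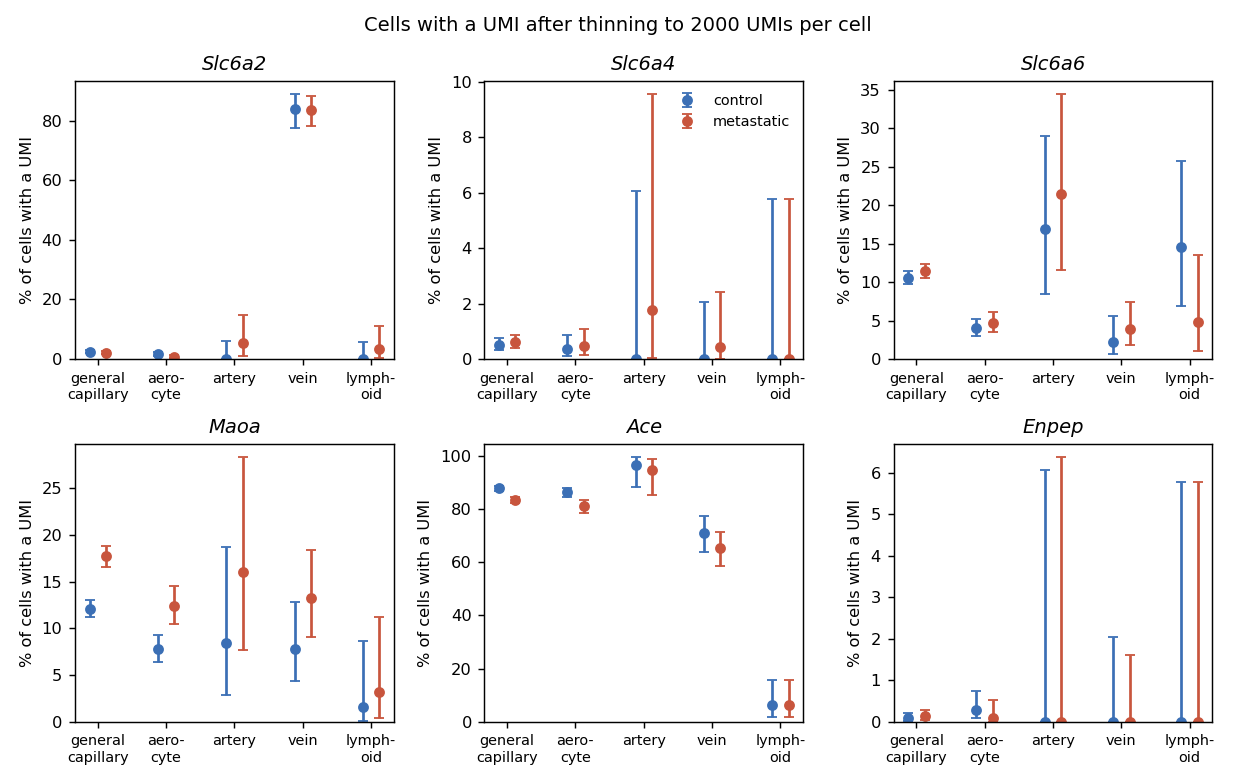
Percent of cells with at least 1 UMI of each gene after thinning to 2000 UMIs per cell, by class and library, with exact binomial 95% intervals. Lymphoid cells (62 per library after thinning) give the background. Slc6a2 was found in 83.8% and 83.7% of vein cells.

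Within the general capillary class, Slc6a2 was held by few cells. The 61 control and 49 metastatic cells with 5 or more UMIs carried 81.6% and 77.1% of the Slc6a2 UMIs of the class, and the median cell had 0. General capillary cells with 1 vein marker, 1 short of the vein rule, held 228 and 170 CPM. Those without a marker of the 3 other classes held 11.5 (10.1–13.1) and 7.93 (6.74–9.27), with intervals that overlapped those of the free RNA of nearly empty barcodes (12.2, 5.26–24.0, and 15.1, 7.54–27.0). Those barcodes had 11 to 50 UMIs.

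Over all called cells, the Slc6a2 level was the higher the more vein markers a cell carried. In the control library it was 12.0, 301, 1616 and 1897 CPM with 0, 1, 2 and 3 markers. In the metastatic library it was 10.9, 260, 1362 and 1667. The metastatic value was the lower at each number of markers.

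Between the libraries, Slc6a2 in vein cells differed by -0.32 on the log2 scale (metastatic over control, -0.39 to -0.25), which is short of 1.5-fold. In general capillary cells the difference was -0.24 (-0.37 to -0.11), also short of 1.5-fold. It moved to 0.09 when cells with a vein marker were left out and to -0.05 when every cell was weighted equally. In aerocytes the difference was -0.76 (-1.19 to -0.34), past 1.5-fold lower, as were 1.9% of the 10478 genes tested in aerocytes. That call changed sign, to 0.92, when classes were assigned on thinned cells. Over the 4 classes together the difference was 0.03 (-0.03 to 0.10), with vein cells a larger share of the metastatic cells.

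**Figure D3:**
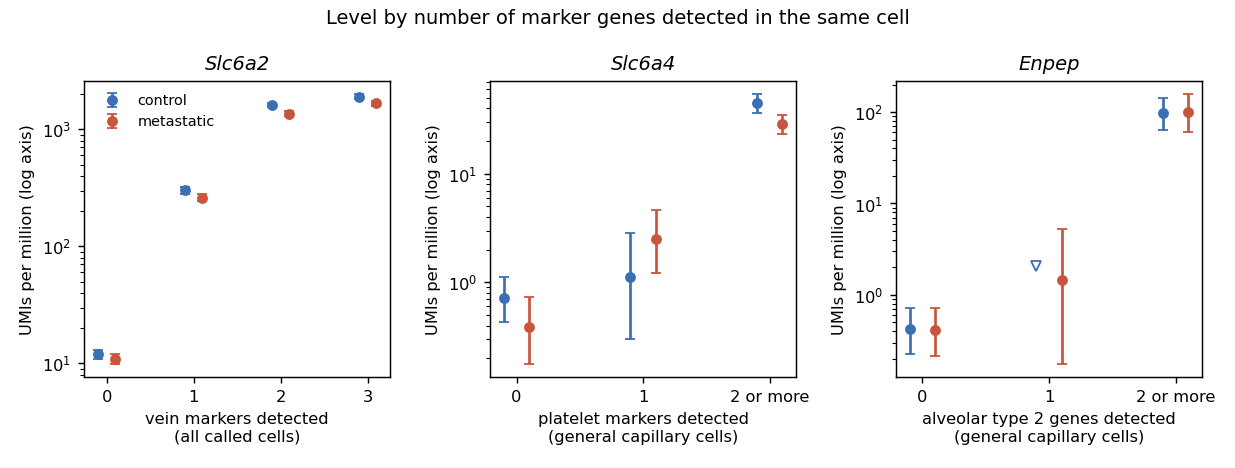
Level in CPM (log axis) against the number of marker genes found in the same cell: Slc6a2 against 3 vein markers in all called cells, Slc6a4 against 4 platelet markers and Enpep against 4 alveolar type 2 genes in general capillary cells. Bars are 95% Poisson intervals, and the open triangle marks the level of 3 UMIs where no UMI was counted. Slc6a4 reached 44.5 and 28.6 and Enpep 97.7 and 99.9 in the cells with 2 or more such genes.

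Slc6a4, the serotonin transporter gene, gave 131 and 121 UMIs in general capillary cells, or 4.02 (3.36–4.77) and 3.94 (3.27–4.71) CPM. Aerocytes gave 20 and 25 UMIs, artery cells 0 and 5, and vein cells 0 and 9. General capillary cells were above aerocytes (1.75, 1.07–2.70) in the control library, while in the metastatic library the intervals of all 4 classes overlapped one another. A stricter endothelial filter left out cells with a UMI of Ptprc, Epcam, Col1a1, Pf4 or Ppbp. Under it the mean log2 ratio of aerocytes over general capillary cells changed sign, from -0.886 to 0.535. After thinning, 0.52% and 0.60% of the general capillary cells carried a UMI, against 0 of 62 lymphoid cells in each library, which allows up to 5.78%.

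Slc6a4 UMIs lay with platelet markers (Pf4, Ppbp, Itga2b, Gp9). The 337 control and 485 metastatic general capillary cells with 2 or more of them held 108 of the 131 and 102 of the 121 UMIs, at 44.5 (36.5–53.8) and 28.6 (23.3–34.7) CPM. The 4219 and 3542 cells with no platelet marker held 19 and 9 UMIs, or 0.72 (0.43–1.12) and 0.39 (0.18–0.74) CPM. Platelets are known to carry this transporter and to store serotonin. Cells that met the platelet list and had at most 1 of the 4 endothelial markers (27 and 31) held 469 and 396 CPM, above every endothelial class.

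In general capillary cells Slc6a4 differed by -0.03 (-0.40 to 0.34) between the libraries. With every cell that carried a platelet marker left out it differed by -0.88, on 19 control and 9 metastatic UMIs. In vein cells, 9 metastatic against 0 control UMIs gave a ratio of 2.37 with 0 taken as 3 UMIs. That ratio is not a lower limit, since the counting interval of the log2 difference began at 0.64. The UMIs in vein cells were too few for Slc6a4 to be among the genes compared there. Pf4 was found in 10.9% of metastatic and 5.03% of control vein cells, and its part in that difference was not tested.

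Slc6a6, the taurine transporter gene, was highest in artery cells, with a control level of 205 CPM (166–252) and a metastatic level of 208 CPM (168–254). General capillary cells held 67.2 (64.4–70.0) and 83.1 (79.9–86.4), aerocytes 29.4 (26.4–32.8) and 35.0 (31.4–39.0), and vein cells 22.4 (15.8–30.9) and 23.5 (17.4–31.0). Artery cells and general capillary cells were apart from each other and from the other 2 classes in both libraries, while the intervals of aerocytes and vein cells overlapped. The free RNA held Slc6a6 at 137 and 139 CPM, above the level of every class but artery cells.

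Artery cells held 3.06-fold and 2.50-fold the general capillary level, past 2-fold higher in both libraries, as were 3.52% of the 12232 genes tested. The count fell to 0 members when classes were assigned on thinned cells, which left 16 control and 20 metastatic artery cells. Aerocytes and vein cells were past 2-fold lower than general capillary cells in both libraries. General capillary cells with 1 artery marker held 112 (97.2–128) and 132 (115–150), above the cells without a marker of the other classes (63.9 and 77.1) and below artery cells. Cells with 1 vein marker, at 126 (107–147) and 88.9 (73.0–107), were also above the unmarked cells, in the metastatic library with intervals that overlapped, so the higher level was not particular to artery-marked cells.

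In artery cells most Slc6a6 UMIs came from few cells: 8 control and 6 metastatic cells with 5 or more UMIs held 74.2% and 65.3% of them. After thinning, 16.9% (8.44–29.0) of control and 21.4% (11.6–34.4) of metastatic artery cells carried a UMI. The share was 10.6% and 11.4% in general capillary cells and 14.5% (6.86–25.8) and 4.84% (1.01–13.5) in lymphoid cells. The general capillary and artery shares of the control library and the general capillary share of the metastatic library lay within the lymphoid interval. The metastatic artery interval overlapped it, so with few lymphoid cells none of these shares could be told from the background. By level, lymphoid cells held 43.2 (23.6–72.5) and 29.7 (14.3–54.7) CPM. Artery cells were above them in both libraries, and general capillary cells in the metastatic library only.

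Slc6a6 was higher in the metastatic library in general capillary cells by 0.31 on the log2 scale (0.23 to 0.39), short of 1.5-fold. It was past 1.5-fold, at 0.60, once free RNA was subtracted. That subtraction took unequal shares of the general capillary UMIs, 20.3% in the control and 13.7% in the metastatic library. The part of this inequality in the 0.60 was not tested. In aerocytes the difference was 0.25 (0.03 to 0.47), in artery cells 0.02 (-0.41 to 0.45) and in vein cells 0.07 (-0.58 to 0.72). The aerocyte value was 1.03 with free RNA subtracted and -0.06 with classes assigned on thinned cells. Monocytes and macrophages held more than the endothelium, with 507 and 578 CPM in 38 and 39 cells.

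Maoa, which encodes the amine-oxidizing enzyme, was higher in the metastatic library in each class. General capillary cells held 65.4 CPM (62.6–68.2) and 106 CPM (102–109). Aerocytes held 45.3 (41.5–49.4) and 66.7 (61.5–72.1), artery cells 64.02 (42.9–91.9) and 103 (75.5–137), and vein cells 42.4 (33.1–53.6) and 73.3 (62.1–85.9). The intervals of the libraries parted in each class except artery cells, which gave 29 and 47 UMIs.

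The log2 difference was 0.69 (0.61 to 0.77) in general capillary cells, past 1.5-fold. Of the 12193 genes tested there, 4.38% were past 1.5-fold higher and 2.39% lower, and 3.03% were at least as high as Maoa. It was 0.79 (0.37 to 1.22) in vein cells, where 5.05% of 7478 genes were past 1.5-fold higher and 3.3% lower. It was 0.68 (-0.02 to 1.40) in artery cells, where 8.22% of 3334 genes were past 1.5-fold higher and 5.22% lower. In aerocytes it was 0.56 (0.39 to 0.73), short of 1.5-fold, where 4.01% of genes were past 1.5-fold higher. The intervals of the 4 classes overlapped. With classes assigned on thinned cells the difference was 0.33 in vein cells, 0.12 in artery cells and 0.38 in aerocytes, so that the vein and artery cells were no longer past 1.5-fold.

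The share of general capillary cells with a Maoa UMI after thinning was 12.1% (11.2–13.0) in the control and 17.7% (16.6–18.8) in the metastatic library. In aerocytes it was 7.76% and 12.4%, and in lymphoid cells 1.61% (0.04–8.66) and 3.23% (0.39–11.2). The UMIs were spread over many cells, since the 1% of general capillary cells with the most held 9.53% and 8.22% of them.

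Maoa in each of the following subsets of general capillary cells was higher in the metastatic library. Cells without a marker of the other classes held 66.6 and 109 CPM. Cells with 3 or more of 7 genes of reactive capillary cells (Pim3, Bcl3, Inhbb, Osmr, Tmem252, Adamts9, Scarb1), scored after thinning (347 and 504 cells), held 65.2 (55.3–76.2) and 97.3 (87.4–108), against 65.6 (62.7–68.6) and 107 (103–111) in the remaining cells, with overlapping intervals. Cells with no platelet marker held 64.9 and 109. Under the 14 alternative settings the difference in general capillary cells ranged from 0.67 to 0.76. At a fold of 2 no member was past the threshold.

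**Figure D4:**
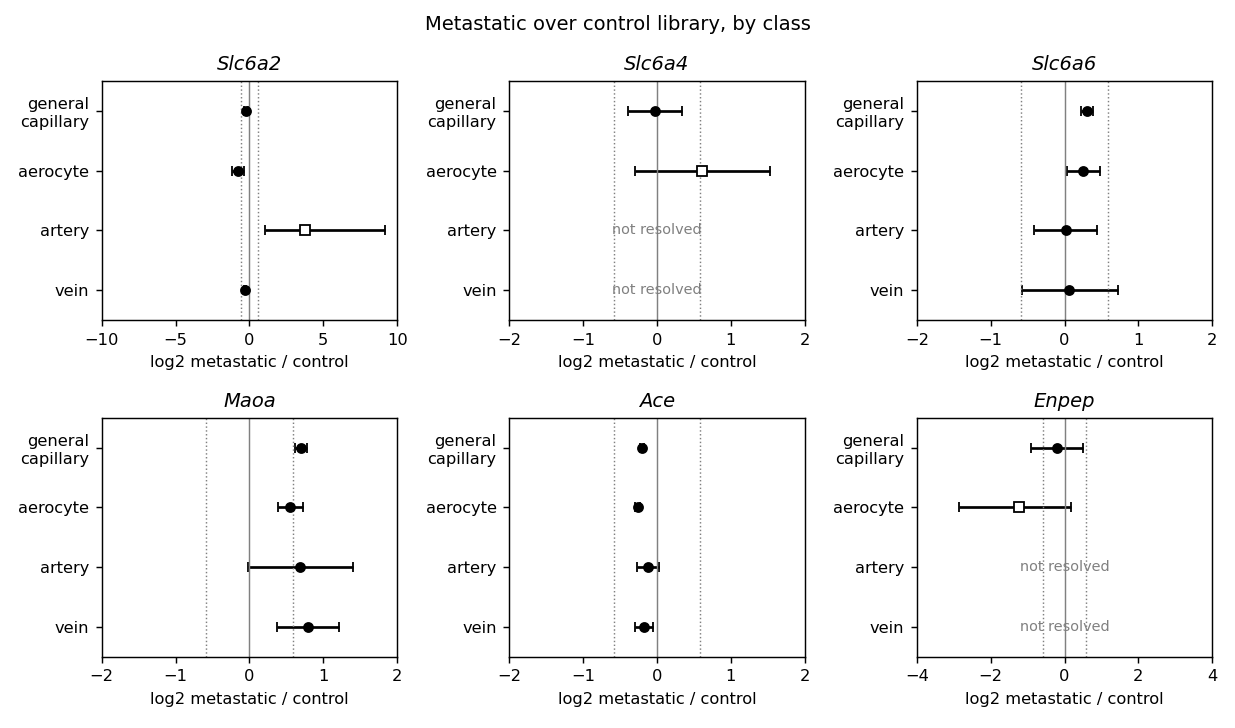
Log2 ratio of the metastatic over the control library for each gene and class, with exact conditional binomial 95% intervals (axes differ between panels). Filled circles are values with 50 or more UMIs over both libraries, open squares those with fewer, and dotted lines mark 1.5-fold. Maoa lay at or above 0.56 in each class, and Ace lay below 0 in each class.

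Ace, which encodes angiotensin-converting enzyme, was highest in artery cells, with 1640 (1524–1763) control and 1511 (1401–1628) metastatic CPM. General capillary cells held 1226 (1214–1238) and 1065 (1053–1076), and aerocytes 1189 (1169–1209) and 992 (972–1012). Vein cells held 693 (653–734) and 614 (580–648). Artery cells exceeded general capillary cells 1.34-fold and 1.42-fold, and vein cells held 0.565 and 0.576 of the general capillary level. General capillary cells exceeded aerocytes by little, 1.03-fold and 1.07-fold, with intervals that parted within each library. None of these ratios was past 2-fold.

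The same order was seen among general capillary cells split by the markers that set the artery and vein classes. Cells with 1 such marker were 1 short of the artery or vein rule. Whether artery or vein cells missed by the rule gave this order was not tested. Cells with 1 artery marker held 1501 (1446–1557) and 1266 (1214–1319) CPM of Ace, and cells with 1 vein marker 838 (789–890) and 817 (767–869). Cells without a marker of the other classes held 1240 and 1067. The artery-marked cells were thus the highest and the vein-marked cells the lowest of these in both libraries.

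After thinning, 87.8% (86.8–88.7) of control and 83.4% (82.3–84.5) of metastatic general capillary cells carried an Ace UMI. The share was 96.6% and 94.6% in artery cells and 70.9% and 65.2% in vein cells. Lymphoid cells gave 6.45% (1.79–15.7) in each library, and the free RNA held Ace at 277 and 314 CPM.

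Ace was lower in the metastatic library by -0.20 on the log2 scale (-0.23 to -0.18) in general capillary cells and by -0.26 (-0.30 to -0.22) in aerocytes. The difference was -0.12 (-0.27 to 0.03) in artery cells and -0.18 (-0.29 to -0.06) in vein cells. None was past 1.5-fold. The median over all genes tested in general capillary cells was 0.02, and 12.5% of these genes were at least as low as Ace.

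Enpep, the aminopeptidase A gene, was close to the limit of detection. It gave 40 and 33 UMIs in general capillary cells, or 1.23 (0.88–1.67) and 1.07 (0.74–1.51) CPM. Aerocytes gave 17 and 6 UMIs, vein cells 0 and 3, and artery cells none in either library, where 3 UMIs would have been 6.62 and 6.56 CPM. The classes could not be ordered, and after thinning 0.08% and 0.13% of general capillary cells carried a UMI. The difference between the libraries in general capillary cells, -0.19 (-0.90 to 0.51), had an interval that spanned 0.

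Enpep UMIs were held by a few cells that also carried genes of alveolar type 2 epithelium, the surfactant-making cell. The 17 control and 12 metastatic general capillary cells with 2 or more of Slc34a2, Lamp3, Napsa and Cxcl15 held 27 of the 40 and 19 of the 33 UMIs. Their level was 97.7 (64.4–142) and 99.9 (60.1–156) CPM, and their median depth was 20110 and 19875 UMIs. General capillary cells with none of these genes held 0.42 (0.22–0.72) and 0.41 (0.21–0.72). In the control library the 17 cells held 185 (137–243) CPM of Ace, against 1238 (1226–1251) in the cells with none. Their general capillary name thus rests on the marker rule alone. These 4 genes were chosen after the cells with Enpep UMIs had been examined, so the split is a description. Over all called cells, 32 control and 23 metastatic cells with 2 or more of these genes held 58 of 89 and 63 of 96 Enpep UMIs.

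Mesenchymal or mural cells held 160 and 59.6 CPM of Enpep, in 8 and 6 UMIs over 7 and 13 cells. Aminopeptidase A is known from pericytes. Few such cells passed the sort, so their level is imprecise.

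The reactive capillary genes parted cells by their levels of 2 other members. Slc6a6 was 37.6 (30.2–46.2) and 43.0 (36.5–50.3) CPM in general capillary cells with 3 or more reactive genes, against 69.7 (66.8–72.8) and 88.8 (85.3–92.4) in the rest. Slc6a2 was 132 (118–148) and 48.0 (41.1–55.7) in the reactive cells, against 26.0 in the rest of each library. Ace was 1185 (1142–1229) and 1043 (1010–1076) against 1231 (1218–1243) and 1069 (1057–1082), with overlapping intervals. Slc6a2 was thus the higher in reactive cells of both libraries and Slc6a6 the lower. The reactive cells were not split by vein markers, with which the Slc6a2 level rose. Whether the few cells rich in Slc6a2 gave these contrasts was not tested.

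Detection of members in the same general capillary cell was read after thinning. Maoa was found in 12.5% (9.78–15.6) of control cells with a Slc6a6 UMI and in 12.1% of those without, and in 20.4% (17.0–24.1) and 17.4% of the metastatic cells. Slc6a6 was found in 4.03% (1.32–9.16) of control cells with a Slc6a2 UMI and in 10.7% (9.89–11.7) of those without. The metastatic values were 7.29% (2.98–14.4) and 11.5% (10.6–12.5), whose intervals overlapped, while those of the control library did not. The control value rests on 5 cells with both genes, and the pairs named here were picked from all pairs of the 6 members.

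Read together against the classes, the members past 2-fold lower than general capillary cells in aerocytes were Slc6a2 and Slc6a6, where 5.16% of 12614 genes were lower and 3.93% higher. General capillary cells without a marker of the other classes held 11.5 and 7.93 CPM of Slc6a2. Aerocytes, from which no cells were left out, held 12.8 and 7.54. In aerocytes too, 9 control and 4 metastatic cells with 5 or more UMIs held 54.1% and 50.7% of the Slc6a2 UMIs. The part of such cells in the Slc6a2 call was not tested. With classes assigned on thinned cells the mean log2 ratio of Slc6a2 over both libraries went from -1.67 to -0.95, short of 2-fold. In vein cells Slc6a6 was the one lower member, where 3.08% of genes were lower. In artery cells none was lower, where 2.09% of genes were.

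The genes whose levels moved most like each member over the 8 profiles (4 classes in 2 libraries) were taken from 4708 genes, by Pearson's r of log2(CPM + 1). For Slc6a2 these were Lhx6 (r = 0.996), Lbp (0.992) and Ndufa8 (0.989). For Slc6a6 they were Cxcl12 (0.999), Smad7 (0.997) and Prrc2b (0.989), and for Ace Jag2 (0.991), Cdc42bpa (0.987) and Cyb561 (0.978). For Maoa they were Fam129b (0.961), Hnrnpm (0.952) and Kif2a (0.949). For Slc6a4 the leading genes were Lcp1 (0.973), Dguok (0.969) and Lsm7 (0.949), and for Enpep Hba-a1 (0.918), Drg1 (0.907) and Sox13 (0.902), on few UMIs. The 8 profiles share mice and libraries, so these values only describe them.

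**Figure D5:**
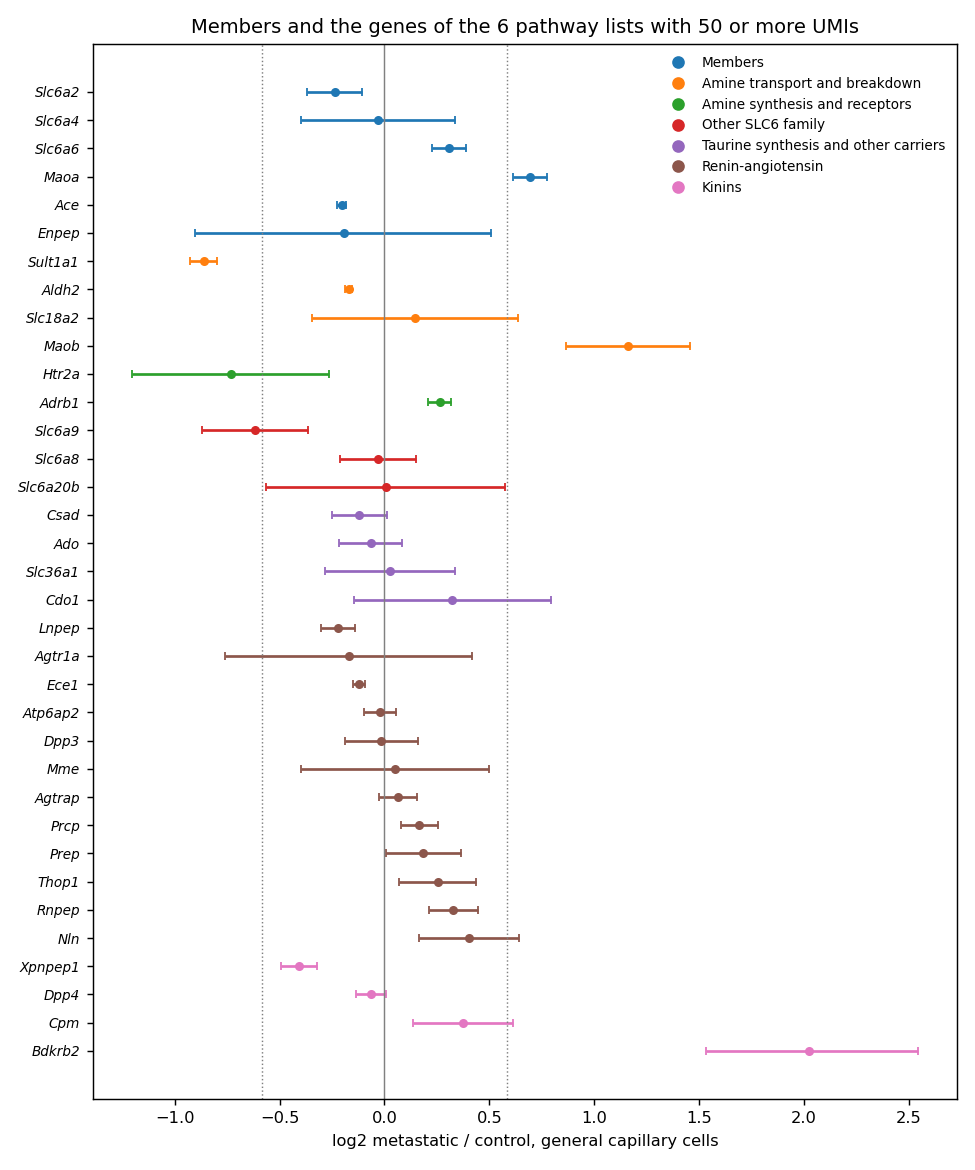
Log2 ratio of the metastatic over the control library in general capillary cells for the 6 genes and for the genes of 6 pathway lists with 50 or more UMIs over both libraries, with exact conditional binomial 95% intervals. Dotted lines mark 1.5-fold. Bdkrb2 (2.03) and Maob (1.16) were the highest, and Sult1a1 (-0.86) the lowest.

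The other genes of amine and peptide handling were compared in general capillary cells by 6 lists. Of 12 genes of amine transport and breakdown, 4 had 50 or more UMIs, 1 was past 1.5-fold higher and 1 lower, with a median log2 difference of -0.01. Over all genes tested in these cells, 4.38% were past 1.5-fold higher and 2.39% lower, with a median of 0.02, which is the background for the counts of each list. Maob, the sister enzyme of Maoa, was higher by 1.16 (0.87 to 1.46), from 142 to 299 UMIs. Sult1a1, a sulfotransferase that conjugates phenols, differed by -0.86 (-0.93 to -0.80), from 181 to 99.6 CPM. Aldh2, which oxidizes the aldehydes formed by the monoamine oxidases, held 1674 and 1487 CPM and was not past 1.5-fold.

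Of 18 genes of amine synthesis and amine receptors, 2 were tested and 1 was past 1.5-fold lower. Htr2a, a serotonin receptor, went from 109 to 62 UMIs (-0.73, -1.20 to -0.27). Adrb1, an adrenergic receptor gene, held 157 and 188 CPM, short of 1.5-fold higher.

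Of 17 other genes of the SLC6 family, 3 were tested, with a median of -0.03. Slc6a9, a glycine transporter, was past 1.5-fold lower, at 10.6 and 6.93 CPM (-0.62, -0.87 to -0.37). Slc6a8, the creatine transporter, gave 523 and 483 UMIs and was not past 1.5-fold. Of 5 genes of taurine synthesis and other taurine carriers, 4 were tested and none was past 1.5-fold. Csad, which makes the precursor of taurine, held 31.9 and 29.4 CPM, and Ado 24.1 and 23.0.

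Of 22 genes of the renin-angiotensin system, 21 were found by symbol, 12 were tested and none was past 1.5-fold, with a median of 0.06. Ece1, an enzyme that activates endothelin, held 593 and 545 CPM. Atp6ap2, the prorenin receptor, held 89.6 and 88.3. Of 11 kinin genes, 4 were tested and 1 was past 1.5-fold, with a median of 0.16. This was Bdkrb2, the bradykinin B2 receptor, which went from 43 to 165 UMIs (2.03, 1.53 to 2.54). Dpp4, a peptidase that trims peptides after proline, held 106 and 101, and Xpnpep1, an aminopeptidase that cuts bradykinin, 81.0 and 61.1.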

How the data were processed

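Single-cell libraries of PECAM1-sorted mouse lung cells were analysed, 1 control and 1 metastatic, each of 2 pooled mice. The deposited values are raw UMI counts per gene and barcode: the authors aligned and counted reads with Cell Ranger (version 3.1.0 in the file headers) against mm10. No cell calling, filter or normalization had been applied. The gene annotation release they counted on is not given in the sources used here. Coordinates are from GENCODE M21 (GRCm38).

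Cells were barcodes with 1000 to 5000 genes and under 20% mitochondrial UMIs. Classes were set per cell: aerocytes by 2 or more of Ednrb, Fibin and Tbx2, artery cells by 2 or more of Gja5, Bmx and Fbln5, vein cells by 2 or more of Car8, Bst1 and Cytl1, and general capillary cells by 2 or more of Gpihbp1, Aplnr, Kit and Lpl with none of these rules met. Cells that met several of the first 3 rules (38 and 33) or none (409 and 487) formed no class. No doublet caller was used for the main values. Lymphoid, platelet and other cell types needed 2 or more of their markers and at most 1 of 4 endothelial markers, and a cell could meet more than 1 list.

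UMIs were summed over a class and scaled to CPM (counts per 1000000 UMIs), with exact Poisson intervals. Ratios carry exact conditional binomial intervals and shares exact Clopper-Pearson intervals, all at 95% and for counting error only, since reads of 1 library are no replicates. Genes with at least 50 UMIs were compared, and a gene was counted as past the fold at 1.5 between libraries or at 2 in both libraries between classes, with a count of 0 taken as 3 UMIs. The free RNA profile was summed from barcodes with 11 to 50 UMIs. The interval code was tested on simulated data for the general capillary comparison: 95.2% of the intervals over 12193 genes covered the true ratio. Python 3.11.15, SciPy 1.17.1, edgeR 4.0.16 and DESeq2 1.42.0 were used, the last 2 for scaling alternatives only.

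All members are named everywhere. Some genes of the pathway lists (2) are not reported here and were left out of the counts and medians. Of the rest, genes past 1.5-fold and the 2 with the highest level are named, and of the likeness ranking the first 3 genes of each member. Members, classes and lists were chosen with earlier results of these data known.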

Additional observations from a re-analysis of the deposited data

Results flagged for a closer look

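Slc6a2 in artery cells went against the other classes. It went from 1 control UMI to 14 metastatic UMIs (log2 difference 3.79, 1.08 to 9.20), whereas it was lower in general capillary cells, aerocytes and vein cells. Of the 14 UMIs, 11 came from 1 cell, and the difference between the classes was not tested.

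Other cell types of the sort, which enter no comparison of the classes, held more of 3 members than any endothelial class. These values are for cells that met 1 list of markers alone. Slc6a4 was 773 CPM in 8 control and 468 in 11 metastatic cells of the platelet list. Slc6a6 was 558 in 14 control and 536 in 17 metastatic cells of the monocyte and macrophage list. Enpep was 159 in 5 control and 62.8 in 9 metastatic cells of the mesenchymal and mural list, all of it in 1 cell of each library. It was 106 in 5 control and 65.6 in 8 metastatic cells of the epithelial list.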

How the results depend on the processing

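No paired analysis was possible because each group holds 1 library. With 1 library of pooled mice per group no value has a replicate check, and differences between mice, sorts and library preparations cannot be told apart from the treatment. Few UMIs limit Slc6a4 and Enpep in every class, and the number of artery cells (59 and 56) limits the members other than Ace there.

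In general capillary cells, 76 of 84 recomputed log2 differences moved by less than the counting interval. Maoa kept its sign and stayed past 1.5-fold under 14 of 14 alternatives (0.67 to 0.76). Ace was -0.23 with TMM factors, -0.23 with DESeq2 size factors and -0.30 with free RNA subtracted, and Slc6a6 was 0.60 with free RNA subtracted. With free RNA subtracted, which took 20.3% of control and 13.7% of metastatic UMIs, the members past 1.5-fold higher were 2 (Maoa and Slc6a6). At a fold of 2 they were 0. Slc6a4 was -0.89 in cells that passed a stricter endothelial filter and, in an alternative chosen after seeing the data, -0.88 without cells that carried a platelet marker. Slc6a2 was -0.049 as a mean over cells and, also chosen after seeing the data, 0.093 without cells that carried a vein marker. The share of all genes past 1.5-fold was 15.4% higher and 13.9% lower with no count minimum, and 1.22% and 0.51% at a fold of 2.

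In the other classes, 170 of 180 log2 differences moved by less than that interval. With classes assigned after thinning, Slc6a2 in aerocytes turned to 0.92. The members past 1.5-fold under that rule were 1 higher and 0 lower in aerocytes. In artery cells 0 were higher, and in vein cells 0 (Maoa 0.33 there). With free RNA subtracted 1 was higher in aerocytes, which was Slc6a6 at 1.03. Against general capillary cells, 1 member was past 2-fold lower in aerocytes and 0 higher in artery cells under the thinned rule.

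The share of general capillary cells with a UMI differed (metastatic minus control) by -0.35 percentage points for Slc6a2, 0.83 for Slc6a6, 5.597 for Maoa and -4.35 for Ace. Not thinned, it differed by 0.29, 3.12, 12.2 and -1.11, and thinned to 1000 UMIs by 3.40 for Maoa and -6.58 for Ace.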

Other observations

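Cells without a class (409 control and 487 metastatic) held 31.4% and 35.7% of the Slc6a4 UMIs, 36.0% and 50.0% of the Enpep UMIs and 18.1% and 16.8% of the Slc6a6 UMIs, while they were 5.73% and 7.53% of the called cells. For Ace and Maoa the same cells held between 1.32% and 2.45% of the UMIs. At least 2 of the 4 endothelial markers were found in 63.6% and 69.2% of them, and Ptprc, a leukocyte gene, in 31.5% and 29.2%.

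Slc6a2 in general capillary cells with 1 artery marker was 12.4 (7.84–18.6) CPM in the control and 59.4 (48.6–71.9) in the metastatic library, on 283 and 251 cells. These levels rest on 23 and 106 UMIs. In the whole general capillary class, 61 control and 49 metastatic cells with 5 or more UMIs held 81.6% and 77.1% of the Slc6a2 UMIs. The part of such cells in this difference was not tested, and the intervals do not cover it.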
